A study of Mus musculus with 2 samples.

Results

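Microvilli are the finger-like projections that pack the apical surface of absorptive epithelial cells and together make up the brush border. Each microvillus holds a core of parallel actin filaments that is crosslinked by bundling proteins, tied to the membrane by myosins and by ezrin, capped at its tip, and joined to its neighbours by protocadherin links. In the colon, crypt cells assemble this apparatus as they leave the crypt base and differentiate, and goblet cells carry a sparser version of it. The 9 brush border cytoskeleton genes described here were Vil1, Pls1, Espn, Eps8, Myo1a, Myo15b, Ezr, Cdhr2 and Cdhr5, which were taken by symbol from the 19294 gene symbols of the count matrix, and all 9 had a row.

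The cells came from colon crypts of C57BL/6 mice of 4 to 10 months that carried Tcf4 GfpCre/+ and RosamTmG/+ and had received no treatment. The Cre sits in the Tcf4 locus as a knock-in that also knocks the gene out, so every animal was heterozygous for Tcf4, and the reporter turns from membrane Tomato to membrane GFP in any cell whose Tcf4 promoter has been active. Cells that had stayed red (Tcf4 Lin−) and a mixed population (MIX in the study's text, while the labels name DP cells) were sorted, combined with human cells and profiled by Drop-seq, in which a bead in each droplet tags captured transcripts with the barcode of the cell and with a molecular identifier (UMI) of their own. There was a single condition in 2 pools (samples 1 to 3, and 4 to 6). Since nothing ties a barcode to its pool, or to the Lin− or the MIX sort, the whole matrix counts as 1 sample, with no replicates, no wild-type animals and no p-values.

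The clusters are those of the authors, who assigned 516 of the 1117 barcodes to B cells, epithelial Pigr+ cells, and induced and natural intraepithelial lymphocytes (iIELs and nIELs), and divided epithelial cells into subclusters named stem cells (32 cells), secretory precursors (32) and absorptive precursors (42). The summed depths were 69046, 128664 and 151780 UMIs, and the median cell held 995.5, 1820.5 and 1939.5 UMIs. The 362 IELs outside the subclusters (425182 UMIs, median 1038) and the 47 B cells (76713 UMIs, median 1503) served as cells that should lack a brush border. All 7 epithelial markers examined, such as Epcam and Krt8, had UMIs in each subcluster, and their summed level was 21520 UMIs per 1000000 (CPM) there and 153 CPM in the IELs. The study named its epithelial cells by Epcam, Krt8 and Krt19, its secretory precursors by genes such as Muc2 and Clca1, and its absorptive precursors by genes such as Lgals3. These genes are among the markers summed here, so the sums describe that naming and are no check of it. Goblet markers summed to 61354 CPM in the secretory precursors, and to 18741 and 4474 CPM in the stem and absorptive subclusters. The absorptive colonocyte markers summed to 1647 CPM in absorptive precursors, and to 246 and 303 CPM in the stem and secretory subclusters. Of these 6 genes, 4 had UMIs in absorptive precursors, among them Slc26a3 (15 UMIs) and Krt20, which was at 0 in the other 2 subclusters. Car4 and Aqp8 were at 0 in absorptive precursors, but Aqp8 was at 0 in all 3 subclusters and Car4 had only 2 UMIs, in 1 stem cell. T-cell markers had 20 UMIs in 4 absorptive precursors and none in the other 2 subclusters. Those 4 absorptive precursors held 46 UMIs of the brush border genes. B-cell markers had 12, 6 and 33 UMIs in 8, 3 and 13 cells of the stem, secretory and absorptive subclusters, and in stem cells all were of Cd74. Of the cells in the subclusters, 14 are labelled as IELs in the list of all cells, among them the 4 deepest (19945 to 23205 UMIs, against 12861 in the next), which held 412, 629, 433 and 323 UMIs of epithelial markers and at most 1 UMI of T-cell markers each. These 4 cells gave 24.9% of all UMIs of the subclusters and 33.0% of those of the brush border genes (91 of 276), so the main ratios and counts are also given without them. The barcodes form 2 sets, with suffixes X1 and X2, of unlike makeup. X1 and X2 held 17 and 15 stem cells, 28 and 4 secretory precursors, 34 and 8 absorptive precursors, and 332 and 30 of the IELs. Ratios over both sets therefore mix the sets in unlike shares. No barcode was shared between the 2 barcode sets, and 24 pairs of barcodes in the subclusters, among 21 cells, differed at 1 base only. Numbers and shares of cells count each of these barcodes as a cell and were not recomputed without them.

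The genes lie on different chromosomes, and the bases before their starts differed in kind. In GENCODE M21 on GRCm38, Vil1 (chr1:74409376-74435559, plus strand), Cdhr2 (chr13:54701461-54736662, plus), Cdhr5 (chr7:141269083-141276786, minus), Pls1 (chr9:95752642-95845311, minus), Espn (chr4:152120331-152152371, minus), Eps8 (chr6:137477245-137654876, minus), Myo1a (chr10:127705170-127720940, plus), Myo15b (chr11:115858406-115892603, plus) and Ezr (chr17:6738041-6782784, minus) are all protein coding. Vil1, Myo15b and Ezr overlap Usp37, Recql5 and Sytl3 on the opposite strand, and UMIs from a shared stretch can be told apart only if the counting used strand, which is not given in the sources used here. Promoter windows of 300 bases (250 before the start and 50 after it) were matched in RefSeq GRCm38.p6 for 8 of the 9 genes, and Eps8 had no entry. The window of Ezr held 38 CpG dinucleotides, a number reached by 4.95% of all 32851 windows, whereas that of Vil1 held 5, that of Cdhr2 held 4, that of Myo1a held 2 and that of Cdhr5 held 7, against a median of 7. Pls1 had 16, Myo15b 5, and the 3 starts of Espn had 15, 2 and 5. The 6 letters TTTATG, a core that CDX factors can bind, were found on either strand in the window of Cdhr5 and in that of 1 start of Espn, and in 11.9% of all windows. The upstream stretches of 3 genes, up to the gene start, are shown because Vil1 and Cdhr5 had no UMI in lymphocytes outside the subclusters while Ezr had UMIs in every cell group. Capitals mark CpG dinucleotides.
Vil1, chr1:74409134-74409375, plus strand: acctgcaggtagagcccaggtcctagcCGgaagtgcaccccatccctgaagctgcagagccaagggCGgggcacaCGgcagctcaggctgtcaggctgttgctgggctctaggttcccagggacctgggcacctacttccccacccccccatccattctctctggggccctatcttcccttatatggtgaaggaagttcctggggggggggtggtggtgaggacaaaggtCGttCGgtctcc
Cdhr5, chr7:141276787-141277036, minus strand: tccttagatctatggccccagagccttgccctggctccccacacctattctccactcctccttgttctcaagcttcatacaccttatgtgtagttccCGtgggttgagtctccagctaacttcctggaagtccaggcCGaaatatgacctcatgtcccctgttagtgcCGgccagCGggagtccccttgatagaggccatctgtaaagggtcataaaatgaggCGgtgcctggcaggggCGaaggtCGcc
Ezr, chr17:6782785-6783030, minus strand: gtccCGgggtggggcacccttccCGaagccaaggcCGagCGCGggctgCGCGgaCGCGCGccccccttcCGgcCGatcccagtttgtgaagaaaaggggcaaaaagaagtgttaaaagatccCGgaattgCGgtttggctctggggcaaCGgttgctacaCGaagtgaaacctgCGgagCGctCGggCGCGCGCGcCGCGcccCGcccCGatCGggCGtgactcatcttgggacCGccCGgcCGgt
These stretches hold 5, 7 and 32 CpG dinucleotides and have GC contents of 62.8%, 55.6% and 67.9%. The comparison is of sequence alone, and no binding or methylation was measured.

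Among the cells assigned to a cluster, most brush border genes had nearly all their UMIs in the epithelial subclusters, while Ezr was as high in lymphocytes. Barcodes in no cluster, described below, held 65 further UMIs of the genes other than Ezr. Summed over the 9 genes, the subclusters held 276 UMIs, a level of 789.7 CPM (exact Poisson 95% interval 699 to 889), and the IELs held 79 UMIs, or 186 CPM (147 to 232), a ratio of 4.25 (3.30 to 5.53). Within the barcode sets, which carry the suffixes X1 and X2, this ratio was 4.34 and 3.46, and without the 4 deepest cells it was 3.80. Ezr made up 73 of the 79 IEL UMIs. Without it, 214 UMIs in the subclusters (612 CPM) stood against 6 in the IELs (14.1 CPM), 43.4-fold higher (19.6 to 119.6). Of the 8 genes with at least 10 UMIs in the cells compared, 7 were at least 2-fold higher in the subclusters, where 26.9% of all 8606 such genes were, and none was at least 2-fold lower, where 24.3% were. The median fold of the 8 was 10.5, with genes at 0 placed at their bound, and that of all genes was 0.985. The minimum of 10 UMIs counts both groups together. Vil1, Pls1, Myo1a, Myo15b, Cdhr2 and Cdhr5 reached it through the subclusters alone, so their calls partly restate the filter and are a description. The same minimum applied to all 8606 genes. Without the 4 deepest cells, 5 of 6 genes were at least 2-fold higher, and in barcode set X2 alone, where bounds are loose, 0 of 3. The share of all genes was not computed in those settings. Vil1, Pls1, Myo1a, Cdhr2 and Cdhr5 had no UMI in 362 IELs, which, with 3 cells as the limit of a 0, allows a share of cells with a UMI of up to 0.829%, and none in the 47 B cells. Against the 3 counts that a 0 allows, Vil1 was at least 26.8-fold higher in the subclusters, Myo1a at least 19.9-fold, Cdhr5 at least 16.6-fold, Cdhr2 at least 7.71-fold and Pls1 at least 5.68-fold. Myo15b, with 1 UMI in the IELs, was 13.4-fold higher (1.95 to 576), and Espn was 2.13-fold higher with an interval (0.541 to 9.92) that includes 1. All intervals cover counting error only, and treat UMIs of the same cell as independent.

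**Figure D1:**
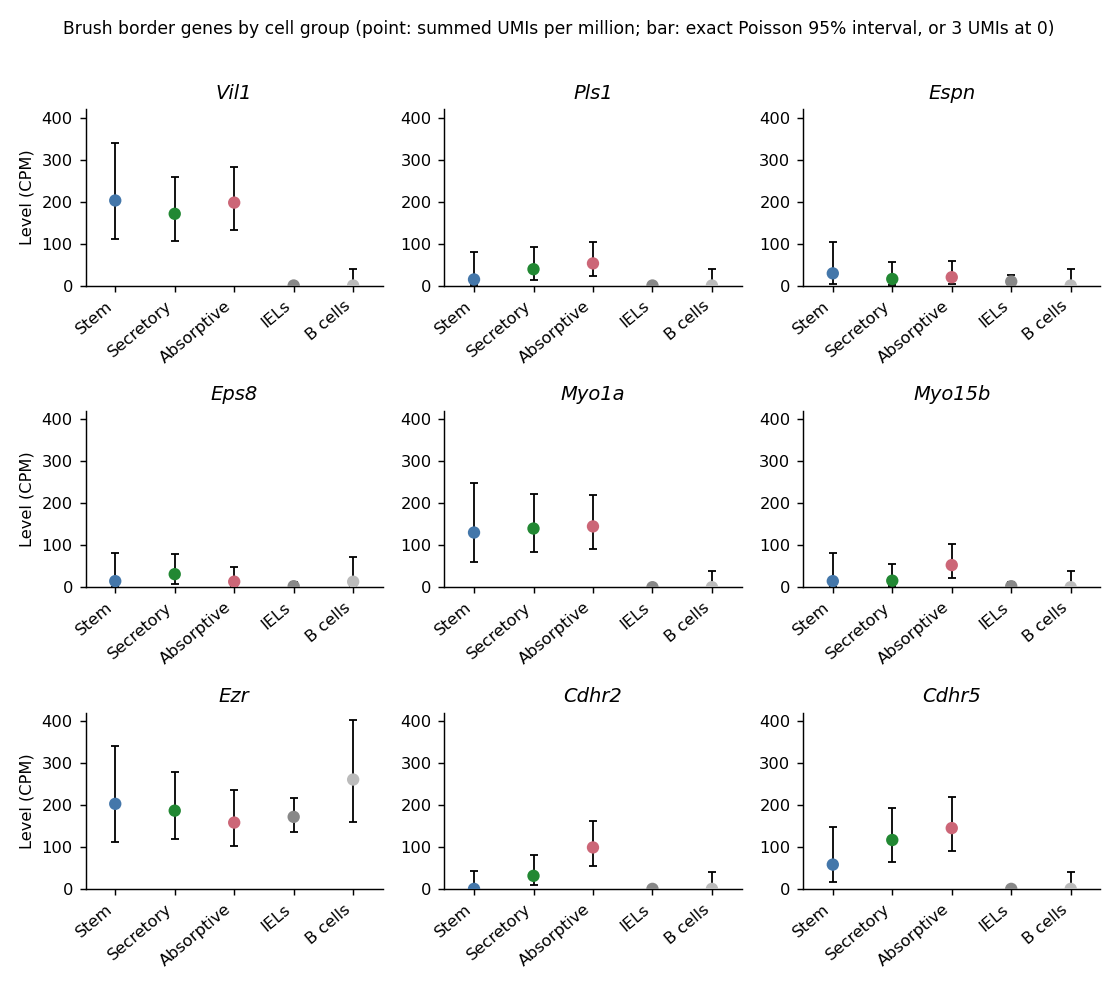
Level of each brush border gene, in UMIs per 1000000 summed over the cells of a group (vertical axis, CPM, from 0), in stem cells, secretory precursors, absorptive precursors, IELs outside the subclusters and B cells; bars are exact Poisson 95% intervals, or reach to 3 UMIs where a group is at 0. Vil1 and Myo1a stand at like heights in the 3 subclusters and at 0 in IELs and B cells, Cdhr2 runs from 0 in stem cells to 98.8 CPM in absorptive precursors, and Ezr is present in every group.

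Among the proteins of the actin core, Vil1, which encodes villin, an actin bundling and severing protein, was found in all 3 subclusters at like levels. It had 14 UMIs in 10 of the 32 stem cells, 22 UMIs in 14 of the 32 secretory precursors and 30 UMIs in 13 of the 42 absorptive precursors, with no more than 6 UMIs in any cell. Those counts are levels of 203 CPM (111 to 340.2), 171 CPM (107 to 259) and 198 CPM (133 to 282). The 3 intervals overlap widely. The level in absorptive precursors was 1.09-fold that of the other epithelial cells (0.646 to 1.81), and the level in stem cells was 1.09-fold that of the others (0.560 to 2.002). Without the 4 deepest cells these ratios were 0.908 and 1.21. With each cell thinned to 800 UMIs, the shares of cells with a Vil1 UMI were 20.1%, 16.5% and 14.9% in the stem, secretory and absorptive subclusters.

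The other core proteins were sparser. Pls1, which encodes plastin 1, the fimbrin that crosslinks the actin bundle, had 1, 5 and 8 UMIs in the stem, secretory and absorptive subclusters. Its levels were 14.5 CPM (0.367 to 80.7), 38.9 CPM (12.6 to 90.7) and 52.7 CPM (22.8 to 104), which is 3.20-fold lower in stem cells than in the other epithelial cells, with an interval of the stem to other ratio from 0.00735 to 2.08. The only stem cell with Pls1 was the deepest cell of the subcluster. Espn, which encodes espin, a bundling protein that lengthens actin-based protrusions, had 2, 2 and 3 UMIs in 7 different cells, and 4 UMIs in 4 of the IELs outside the subclusters. Eps8, whose protein caps and bundles filaments at the microvillus tip, had 1, 4 and 2 UMIs, with 1 further UMI in the IELs and 1 in the B cells. Espn and Eps8 had under 10 UMIs in the 3 subclusters and so were not counted in the folds between them, and for both, levels in epithelial cells and in lymphocytes rest on single UMIs.

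Of the myosins, Myo1a, the motor that bridges the actin core and the membrane along the microvillus, likewise stood at similar levels in the 3 subclusters. It had 9 UMIs in 5 stem cells, 18 UMIs in 8 secretory precursors and 22 UMIs in 12 absorptive precursors, that is 130.3 CPM (59.6 to 247), 139.9 CPM (82.9 to 221) and 145 CPM (90.8 to 219). The ratios to the other epithelial cells were 0.914, 0.997 and 1.06, in the same order, with intervals from 0.390 to 1.91, 0.525 to 1.84 and 0.576 to 1.94. A single secretory precursor, of the 4 deepest cells, gave 8 of the 18 secretory UMIs, and without the 4 deepest cells the ratios were 1.13, 0.673 and 1.34. Myo15b, an unconventional myosin, had 1, 2 and 8 UMIs, or 14.5 CPM (0.367 to 80.7), 15.5 CPM (1.88 to 56.2) and 52.7 CPM (22.8 to 104). It was 3.47-fold higher in absorptive precursors than in the other epithelial cells, with an interval (0.834 to 20.3) that includes 1. Its UMIs lay in 6 absorptive precursors, 3 of them in 1 of the deepest cells, and without the 4 deepest cells the ratio was 3.58.

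The protocadherins Cdhr2 and Cdhr5, which meet between neighbouring microvillus tips and link them, had 0 and 4 UMIs in the stem cell subcluster. Cdhr2 had 0 UMIs in 32 stem cells, 4 UMIs in 2 secretory precursors and 15 UMIs in 8 absorptive precursors. These are 0 CPM (3 UMIs there would be 43.4), 31.1 CPM (8.47 to 79.6) and 98.8 CPM (55.3 to 163). The level in absorptive precursors was 4.88-fold that of the other epithelial cells (1.56 to 20.2), the only interval among the 9 genes in the comparisons between subclusters that excluded 1. A single deep absorptive precursor held 6 of the 15 UMIs. Without that cell the ratio was 3.46, and without the 4 deepest cells it was 3.23, with an interval (0.901 to 14.3) that includes 1. It was 12.0 with each cell thinned to 800 UMIs and 25.5 with CPM averaged over cells, so the direction was kept but not the size. At the depth of the stem cells, with 3 UMIs as the limit of the 0, Cdhr2 was at least 1.56-fold lower there. Without the 4 deepest cells the bound on that ratio was 1.09, so a difference was not detectable.

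Cdhr5 had 4 UMIs in a stem cell, 15 UMIs in 8 secretory precursors and 22 UMIs in 8 absorptive precursors. The levels were 57.9 CPM (15.8 to 148), 117 CPM (65.3 to 192) and 145 CPM (90.8 to 219), and the ratio of stem cells to the other epithelial cells was 0.439 (0.114 to 1.22). For secretory and absorptive precursors this ratio was 0.990 (0.488 to 1.94) and 1.51 (0.779 to 2.95), so each interval includes 1. All 4 stem cell UMIs were in the deepest cell. Secretory precursors and absorptive precursors had the gene in 25.0% and 19.0% of their cells, and in 10.8% and 6.42% after thinning to 800 UMIs, against 0.609% of stem cells. Cdhr5 was thus not limited to the absorptive branch in these cells. Of the 19 Cdhr2 UMIs, 15 were in that branch, 6 of them in 1 deep cell, and 4 were in secretory precursors. A difference between the 2 genes was not tested. Cdhr2 and Cdhr5 were found together in 3 of the 10 cells with Cdhr2 and of the 17 cells with Cdhr5.

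The stem cell subcluster without its deepest cell held some of the genes and not others. In the other 31 stem cells, with 45841 UMIs, Vil1 had 10 UMIs, Ezr had 7, Myo1a had 6, Espn had 2 and Eps8 had 1, whereas Pls1, Myo15b, Cdhr2 and Cdhr5 had none. The other 2 subclusters held 13, 10, 19 and 37 UMIs of these 4 genes. With 3 UMIs as the limit of a 0, Cdhr5 was at least 2.02-fold lower and Cdhr2 at least 1.04-fold lower in these stem cells. For Pls1 and Myo15b a difference from the other epithelial cells was not detectable at this depth. The deepest cells of the other 2 subclusters were kept here. Without all 4 deepest cells, Cdhr5 was at least 1.84-fold lower in stem cells. For Cdhr2 the bound on the ratio was then 1.09, so a difference was not detectable.

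**Figure D2:**
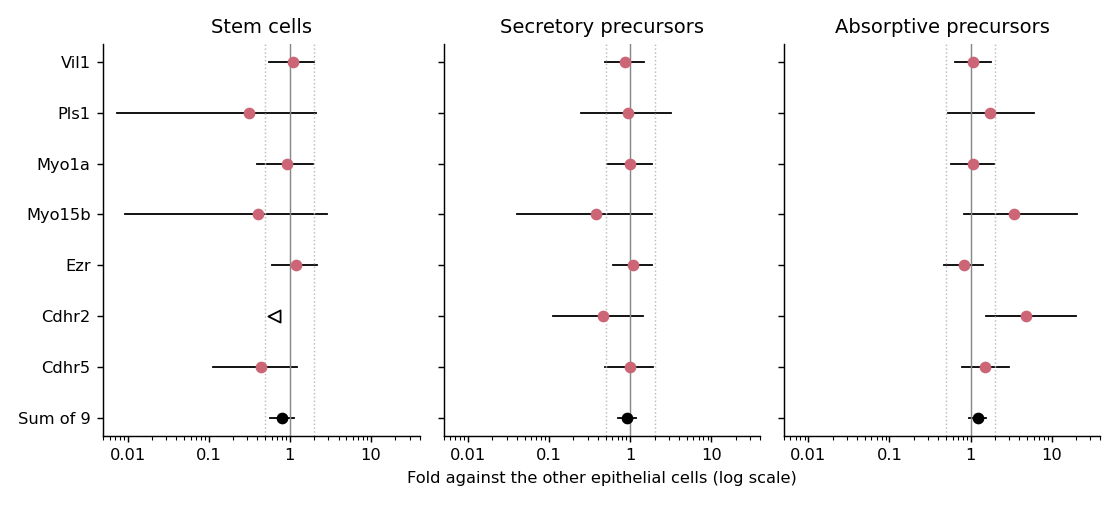
Ratio of the level in each subcluster to that in the other epithelial cells (horizontal axis, log scale), for the 7 brush border genes with at least 10 UMIs in these cells and for the sum of all 9; lines are exact binomial 95% intervals on the UMIs, dotted lines mark 2-fold, and the open triangle is the bound for Cdhr2, which is at 0 in stem cells. The sum stays near 1 in each panel, while Cdhr2 and Myo15b lie at 4.88 and 3.47 in absorptive precursors.

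Counted by fold, 2 of the 7 genes with at least 10 UMIs in the subclusters (Myo15b and Cdhr2) were at least 2-fold higher in absorptive precursors, beside 14.7% of all 5325 such genes, and none was at least 2-fold lower, beside 15.6%. In secretory precursors none of the 7 was at least 2-fold higher, beside 11% of all genes, and Myo15b and Cdhr2 were 2.62-fold and 2.18-fold lower, a direction in which 22% of all genes passed. In stem cells Pls1, Myo15b and Cdhr5 were at least 2-fold lower, beside 15.8% of all genes, and none was at least 2-fold higher, beside 18%. Without the 4 deepest cells, where no share of all genes was computed, 1 of 5 genes, Cdhr2, was at least 2-fold higher in absorptive precursors. None of the 3 calls in stem cells held then, since Pls1 and Myo15b had under 10 UMIs and Cdhr5, at 0 in stem cells, had a bound on its ratio of 0.545. These are counts of 2 or 3 among 7 genes with few UMIs, and the subclusters were made from these same counts, so the ratios are descriptions. The minimum of 10 UMIs counts both sides together. Cdhr2 reached it through its 15 UMIs in absorptive precursors alone, and Myo15b had 8 of its 11 UMIs there. The median ratios of the 7 were, in the same order of subclusters, 1.51, 0.954 and 0.641, against 1.04, 0.819 and 1.02 for all genes. The summed level of all 9 genes was 883, 746 and 666 CPM in the absorptive, secretory and stem cell subclusters. Its ratios to the other epithelial cells were 1.23 (0.963 to 1.57), 0.915 (0.707 to 1.18) and 0.812 (0.579 to 1.12), and all 3 intervals include 1. The first was 1.16 in barcode set X1 and 1.49 in X2. Without Ezr the ratio in absorptive precursors was 1.38 (1.04 to 1.82), and without the 4 deepest cells as well it was 1.27, with an interval (0.904 to 1.78) that includes 1. With each cell thinned to 800 UMIs, so that deep cells weigh no more than others, the ratio of the sum in absorptive precursors was 1.00.

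Ezr, whose protein ezrin ties the actin core to the membrane, was as high in lymphocytes as in epithelium. It had 14, 24 and 24 UMIs in the stem, secretory and absorptive subclusters, or 203 CPM (111 to 340.2), 187 CPM (119.5 to 278) and 158 CPM (101 to 235). In the IELs it had 73 UMIs in 56 cells, or 172 CPM (135 to 216), and in the B cells 20 UMIs in 15 cells, or 261 CPM (159 to 403). The subclusters stood at 1.03-fold the IELs (0.724 to 1.47), and at 0.844-fold without the 4 deepest cells. An Ezr UMI was found in 29.2% of the cells of the subclusters (median 1606.5 UMIs) and in 15.5% of the IELs (median 1038 UMIs), and after thinning to 800 UMIs in 10.6% and 11.9%. Ezr and Vil1 had 62 and 66 UMIs in the subclusters, and 73 and 0 UMIs in the IELs.

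The family of ezrin, radixin and moesin differed in its makeup more than in the level of Ezr. Of the 67 UMIs of the 3 genes in the subclusters, Ezr gave 62 (92.5%, exact Clopper-Pearson interval 83.4% to 97.5%), Rdx gave 5 and Msn, the moesin of blood cells, gave none. In the IELs, Ezr gave 73 of 225 (32.4%, 26.4% to 39.0%), Msn 86 and Rdx 66, and in the B cells Ezr gave 20 of 63 (31.7%). The share in each subcluster was 14 of 17, 24 of 25 and 24 of 25.

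A like division was seen in the plastins, which bundle actin in different tissues. Pls1 gave 14 of the 22 plastin UMIs in the subclusters (63.6%, 40.7% to 82.8%), Pls3 gave 3 and Lcp1, the leukocyte plastin, gave 5. In the IELs all 203 plastin UMIs were of Lcp1, and in the B cells all 57. In the Eps8 family, the relative Eps8l3 gave 39 of the 63 UMIs in the subclusters and Eps8l2 gave 14, and Eps8 itself gave 7. Vill, the villin-like paralog of Vil1, had no UMI in the subclusters. These shares count UMIs, which are not scaled by transcript length.

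**Figure D3:**
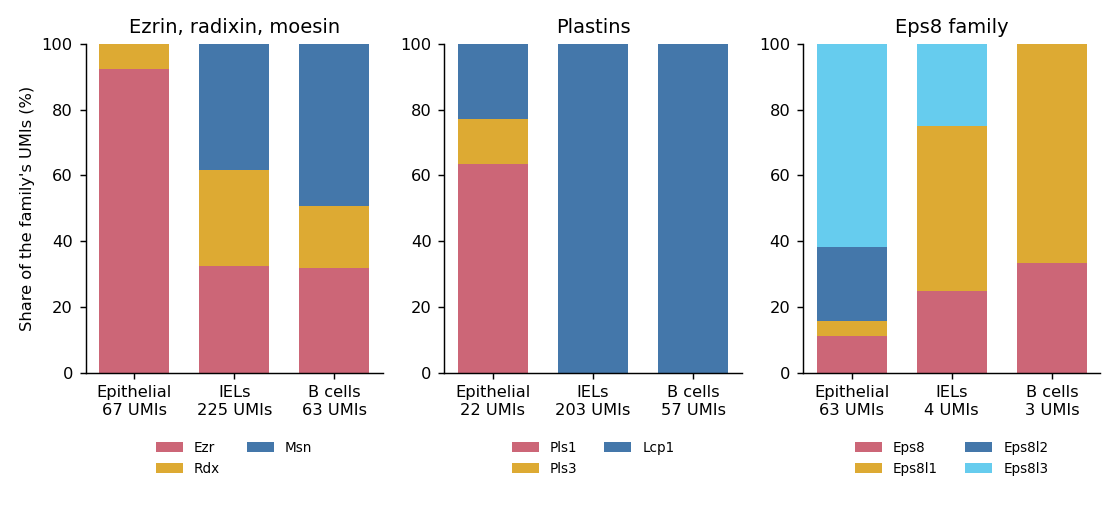
Share of the UMIs of each family (vertical axis, %) that belongs to each gene, in the cells of the 3 epithelial subclusters, in IELs and in B cells, with the number of family UMIs under each bar. Ezr fills 92.5% of the first bar on the left and 32.4% of the second, and Pls1 is seen in the epithelial bar only; the Eps8 bars of IELs and B cells hold 4 and 3 UMIs.

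Other genes of the apical apparatus were taken from lists of 63 genes, of which 33 had at least 10 UMIs in the subclusters. Of these 33, 10 were at least 2-fold higher in absorptive precursors than in the other epithelial cells and 3 were at least 2-fold lower, the same directions in which 14.7% and 15.6% of all genes passed, and their median ratio was 1.40 against 1.04. Without the 4 deepest cells, 5 of 31 were higher (Tpm1, Tpm3, Baiap2l1, Slc26a3 and Myo1d) and 3 were lower (Baiap2l2, Tmsb10 and Slk), with a median ratio of 1.34. The shares of all genes were not computed without those cells, so whether these counts exceed them was not tested. Among the partners of Cdhr2 and Cdhr5 in the tip-link complex, 2 of 4 were at least 2-fold higher. Calml4, a light chain of that complex, had 8, 27 and 61 UMIs in the stem, secretory and absorptive subclusters, or 116, 209.8 and 402 CPM, and was 2.27-fold higher in absorptive precursors (1.47 to 3.55), or 1.91-fold (1.16 to 3.18) without the 4 deepest cells. Anks4b, a scaffold of the complex, was 2.61-fold higher (0.698 to 11.8) on 12 UMIs, and had 8 UMIs without those cells. Ush1c, which encodes harmonin, and Myo7b, the motor at the tip, had ratios of 1.80 (0.835 to 4.00) and 1.12 (0.310 to 3.88), and of 1.86 and 0.615 without those cells. All 4 were at least 2-fold higher in the subclusters than in the IELs, beside 26.9% of all genes. Each reached the minimum of 10 UMIs through the subclusters alone, so these calls partly restate the filter. In the IELs Ush1c had 1 UMI and the other 3 had none.

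The terminal web, the contractile meshwork in which the core bundles are rooted, had 3 of 7 genes at least 2-fold higher in absorptive precursors and none lower. The shares of all genes were 14.7% and 15.6%. Tpm1 and Tpm3, which encode tropomyosins, were 2.91-fold (1.92 to 4.50) and 2.31-fold higher (1.70 to 3.17), and Myh14, a nonmuscle myosin heavy chain, was 2.30-fold higher (1.12 to 4.95). Without the 4 deepest cells these ratios were 2.29 (1.42 to 3.75), 2.29 (1.63 to 3.25) and 1.91 (0.849 to 4.43), and the last interval includes 1. The other 4 terminal web genes, Myh9, Sptan1, Sptbn1 and Actn4, had ratios between 1.26 and 1.76. Baiap2l1 and Baiap2l2, related proteins that act where the membrane meets the actin tip, went apart, at 2.61-fold higher (1.25 to 5.72) and 2.39-fold lower in absorptive precursors, the second with 13, 15 and 9 UMIs in the 3 subclusters, in the order above. In apical traffic, Rab8a (12 of 18 UMIs) and Rab11fip1 (13 of 21 UMIs) were 2.61-fold and 2.12-fold higher, and Stx3, a syntaxin of apical delivery, had 2 of its 10 UMIs there and was 3.07-fold lower. Of the cargo of the apical membrane, Slc26a3, the chloride and bicarbonate exchanger of colonocytes, had 0, 4 and 15 UMIs and was 4.88-fold higher (1.56 to 20.2), the same counts as Cdhr2, and Mep1a, a meprin subunit, was 2.08-fold higher (0.601 to 8.10). Tmsb10, which binds actin monomers, went the other way, with 48, 226 and 70 UMIs, 3.00-fold lower in absorptive precursors and 3.29-fold higher in secretory precursors (2.62 to 4.14). Actb differed little, at 0.994-fold (0.863 to 1.143). Without the 4 deepest cells, Slc26a3 was 3.94-fold higher (1.17 to 17.0), Baiap2l1 2.55-fold higher (1.06 to 6.55) and Tmsb10 2.72-fold lower, whereas the ratios of Rab8a, Rab11fip1 and Mep1a were 1.91, 1.84 and 1.72 and Stx3 had 6 UMIs left.

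Against the lymphocytes, the listed genes went both ways. Of 43 with at least 10 UMIs in the cells compared, 19 were at least 2-fold higher in the subclusters than in the IELs and 15 at least 2-fold lower. Of 5 such genes among the ezrin relatives and linkers, 4 were lower (Msn, Rdx, Slc9a3r1 and Stk10) and none higher. Slc9a3r1 had 8 UMIs in the subclusters and 56 in the IELs. The actin genes themselves also ran opposite to most brush border genes. Of the 6 genes of actin and its monomer-binding proteins, 5 were at least 2-fold lower in the subclusters than in the IELs, among them Actb (2361 against 7999 CPM) and Tmsb4x (624 against 10929 CPM). In that direction 24.3% of all 8606 genes with at least 10 UMIs passed. The 6 listed genes of the leukocyte cytoskeleton (Lcp1, Msn, Coro1a, Myo1f, Myo1g and Was) were all at least 2-fold lower. They had 0 to 5 UMIs each in the subclusters and 24 to 256 in the IELs. They were listed as leukocyte genes, so their lower level describes that choice and is no test. Muc13 and Ceacam1, which encode glycoproteins of the apical surface, had 203 and 356 UMIs in the subclusters and 1 and 5 in the IELs.

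At the level of cells, brush border genes were detected in most epithelial cells but few at a time. At least 1 UMI of the 9 genes was found in 20 of 32 stem cells (62.5%, 43.7% to 78.9%), 25 of 32 secretory precursors (78.1%, 60.0% to 90.7%) and 27 of 42 absorptive precursors (64.3%, 48.0% to 78.4%). Thinned to 800 UMIs the shares were 44.0%, 48.3% and 38.6%. Of the IELs, 61 of 362 had a UMI (16.9%), and without Ezr 6 of 362 did (1.66%, 0.611% to 3.57%), against 15, 22 and 26 cells of the 3 subclusters. The number of genes per cell followed depth. The 34 cells without any had a median of 1026.5 UMIs, the 17 with 3 or more had a median of 8494 UMIs, and the 7 with 5 or more ranged from 2875 to 23205 UMIs. An absorptive precursor with 2875 UMIs held 12 UMIs of 6 of the genes, and a secretory precursor with 12713 UMIs held 21 UMIs of 7. Pairs of genes met mainly in deep cells: Vil1 and Myo1a shared 12 cells (32.4% of those with Vil1 and 48.0% of those with Myo1a, with a median of 5472 UMIs), and Vil1 and Cdhr5 shared 13 (35.1% and 76.5%, median 7219 UMIs).

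**Figure D4:**
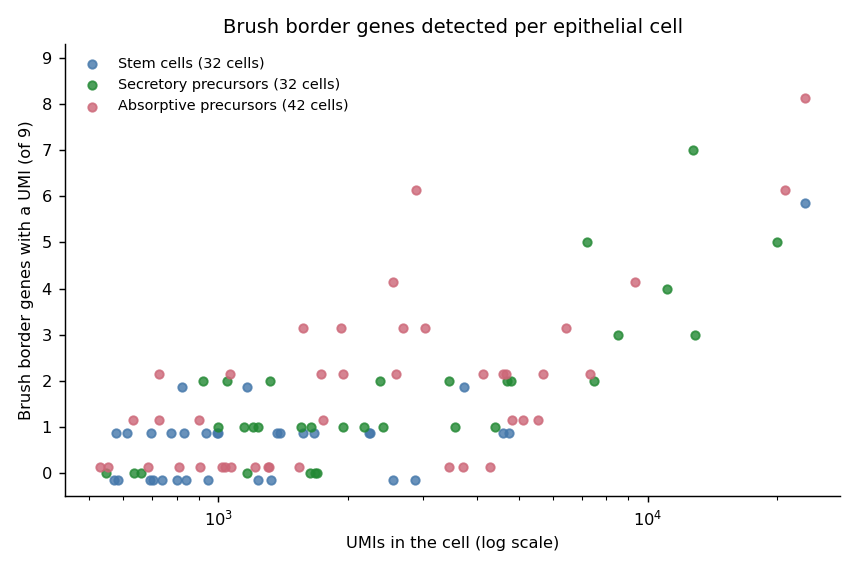
Number of the 9 brush border genes with at least 1 UMI in each epithelial cell (vertical axis, points of the subclusters shifted slightly apart) against the UMIs of the cell (horizontal axis, log scale), for the 32, 32 and 42 cells of the stem, secretory and absorptive subclusters. Cells with 5 or more genes are mostly the deepest, and 1 absorptive precursor with 2875 UMIs stands out with 6.

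In the 4 clusters of all cells, the genes divided along the same line once cells with 2 labels were set apart. The epithelial Pigr+ cluster held Vil1 at 193 CPM, Myo1a at 121 CPM, Cdhr5 at 96.7 CPM and Cdhr2 at 52.4 CPM, and in the nIELs outside the subclusters only Ezr (42 UMIs), Espn (3) and Eps8 (1) had UMIs. The iIEL cluster held 128 UMIs of the 9 genes, with Vil1 at 63.4 CPM and Myo1a at 66.9 CPM. Of those 128 UMIs, 33 lay in iIELs outside the subclusters, of Ezr (31), Espn (1) and Myo15b (1), whereas 95 lay in cells that also appear in the epithelial subclusters, and 91 in the 4 deepest cells, including 17 of the 18 Vil1 UMIs and 18 of the 19 Myo1a UMIs. The part of doublets in these cells was not tested.

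Over the 32, 32 and 42 cells of the 3 subclusters, levels of other genes were also ranked against the summed level of the 9. The 5 genes of at least 50 UMIs (1169 genes) whose levels followed it most closely were Lmna, St3gal6, Mxd4, Klf4 and Foxp1, with Spearman rho of 0.323, 0.293, 0.262, 0.261 and 0.258 across cells of 1 sample, where the 95th percentile of all genes was 0.182. These values are weak, cells share libraries and differ in depth, and they are given as a description.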

How the data were processed

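Drop-seq counts of Tcf4 Lin− and MIX colon cells were used as deposited by the authors, who made them with the Drop-seq pipeline as whole UMI counts per gene symbol and barcode, without normalization, in 1 matrix of 19294 symbols and 1117 barcodes. Aligner and builds are known from the processing notes of the submitters: STAR 2.5.0, Picard 1.137, mm10 and hg19. The annotation behind the counts, the joining of UMIs and the use of strand are not given in the sources used here. Cells were joined by barcode to the clusters that the authors made with Seurat from these same counts, so that subclusters are described and not tested. The genes and lists were chosen with earlier results of these data known.

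UMIs were summed per cluster and given per 1000000 (CPM) with exact Poisson 95% intervals, ratios with exact binomial intervals on the UMIs, and shares of cells with exact Clopper-Pearson intervals, all for counting error only. For a cell group at 0, 3 UMIs, or 3 cells for a share, were taken as the upper limit in place of an interval, and no ratio is given where both groups are at or below that and 1 is at 0. Genes with at least 10 UMIs in the cells compared entered the counts of genes past a fold of 2. Shares were also computed with cells thinned to 800 UMIs in 100 draws, which leaves out 18 cells of the subclusters and 98 IELs. Doublets were not called. Named beyond the 9 genes are listed genes past a fold of 2 between absorptive precursors and the other epithelial cells, paralogs of the 9, the 5 genes of highest rank correlation and, after their values were seen, genes that complete a list or contrast with it. Python 3.11.15, numpy 2.4.6, pandas 2.3.3, scipy 1.17.1 and matplotlib 3.10.9 were used. The ratios were tested on simulated data with independent Poisson counts per gene and group. That setting lacks the clumping of UMIs within cells seen here, so it checks the computation only. Depth per assigned cell was 504 to 23205 UMIs.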

Additional observations from a re-analysis of the deposited data

Results flagged for a closer look

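The 601 barcodes that the authors put in no cluster, which enter no comparison, held 91 UMIs of the 9 brush border genes in 56 barcodes, or 529.9 CPM (426.6 to 651) of their 171737 UMIs, above the limit that a count of 0 allows. Vil1 had 13 of these UMIs, Myo1a 11, Myo15b 11 and Ezr 26, and 1 barcode alone held 14. Their median depth was 212 UMIs, mitochondrial genes took 36.8% of their UMIs, and the epithelial genes Pigr, Krt8 and Epcam had 901, 59 and 55 UMIs in them. Which cells these barcodes stand for was not tested.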

How the results depend on the processing

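The 4 ratios of the summed genes stayed within their main intervals under all 36 alternatives, between 1.00 and 1.49 in absorptive precursors, 0.828 and 1.104 in secretory precursors, 0.752 and 0.893 in stem cells, and 3.46 and 4.63 against IELs. The secretory ratio thus fell on both sides of 1. Counts of genes at least 2-fold higher moved more. The share over all genes was computed for the main setting only, so the counts that follow have none beside them. In absorptive precursors the 2 genes became 0 of 4 at a minimum of 20 UMIs, 4 of 7 at a fold of 1.5, 1 of 5 in barcode set X1, 0 of 3 in X2, 1 of 5 without the 14 cells that carry an IEL label, and 1 of 5 without the 4 deepest cells, an alternative chosen after seeing the data. Fewer genes then reached the minimum. In secretory precursors the 0 became 1 of 9 with no minimum, and in stem cells the 0 became 1 of 7 with CPM averaged over cells. Against IELs the 7 genes became 3 of 4 at 20 UMIs, 0 of 3 in X2, where few cells are, and 4 of 5 without those 14 cells. Eps8, 2.29-fold higher in secretory precursors on 4 UMIs, turned to 0.714 in X1 and to 0.723 with CPM averaged over cells, and the cause was not tested. Leaving out the shallower of barcodes 1 base apart (21 cells of the subclusters and IELs, 14 of them in the subclusters) gave the same 4 counts. That alternative was chosen after seeing the data. Shares of cells with a UMI were less stable than the ratios. Of 72 such shares under an alternative, 39 moved from their main value and 33 were classed as the same. Of 287 ratios of single genes, 276 stayed within their main interval, or within 1.5-fold of a bound. Beside Eps8, the Cdhr2 ratio in absorptive precursors moved from 4.88 to 25.5 and that of Cdhr5 in stem cells from 0.439 to 0.0382 with CPM averaged over cells, and with thinning the latter was 0.0500 and that of Cdhr5 in secretory precursors 3.08. In X2 alone, Vil1 and Cdhr5 stood at 0.412 and 0.386 in secretory precursors, and the bounds of Vil1, Myo1a and Cdhr5 against IELs at 1.93, 1.138 and 1.02. Depth limits Pls1, Espn, Eps8 and Myo15b, each below 10 UMIs in every subcluster.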
